A study of Homo sapiens with 2 samples.

Results

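The genes of the respiratory chain and ATP synthase were compared between 2 cultures of HCT15 cells, a long-established line from a human colorectal adenocarcinoma. The array labelled ARID3B knockout came from cells given ARID3B-Cas9, that is Cas9 directed at ARID3B, whose protein binds AT-rich DNA. The other array came from HCT15 cells given a control. The medium of both cultures was RPMI supplemented with fetal bovine serum, and the sources used here do not say where the guide cuts or whether the edited cells were a clone or a pool. A gene was a member when its platform symbol began with NDUF, SDH, UQCR, COX4 to COX8, ATP5F, ATP5M or ATP5P, which gave 93 of 19775 genes with a probe set of their own. Of these 76 encode structural subunits, 12 encode assembly factors, and 5 are antisense, divergent or pseudogene transcripts. Each gene was read by its brightest probe set (the group of probes that measures 1 transcript) and was kept for comparison if at least 1 of its values reached 4.59, the median of all probe sets other than controls, called the floor. In all 86 members and 12841 genes of the series did so.

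Complexes I to IV of the inner mitochondrial membrane pass electrons from NADH and succinate to oxygen and pump protons, except complex II, which pumps none. Complex V, the ATP synthase, uses the returning protons to make ATP. Most subunits are encoded in the nucleus, a few in mitochondrial DNA, and assembly factors bring the parts together without remaining in the finished enzyme. In the intestinal epithelium oxidative phosphorylation and glycolysis both supply ATP, and many colorectal cancer lines use both.

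The values are log2 expression after robust multi-array averaging (RMA), and a difference is the value on the knockout-labelled array less that on the control array. Each group has 1 array, so no difference has a replicate check or a test, and each describes these 2 arrays. The spread of gene differences (scaled median absolute deviation) was 0.255 to 0.437 in 10 bins of brightness. ARID3B itself was 1.95-fold higher on the knockout-labelled array (6.09, against 5.12 on the control array), so its transcript was not lower under the label. The protein was not measured, so this value does not show whether the edit removed it. Of 10 epithelial markers 8 reached the floor, among them EPCAM and CDX2, while KRT20 and LGALS4 were under it on both arrays. Of 12 measured fibroblast, leukocyte and endothelial markers 5 reached it, none above 7.12. The epithelial markers CDX1, CDX2 and VIL1 also lay below 7.12 on both arrays. EPCAM stood at 12.23 knockout-labelled against 12.19 control, and CDX2 at 6.91 knockout-labelled against 6.27 control. The ratio of 3-prime to 5-prime signal hardly differed between the arrays. For GAPDH it was -0.03 (log2) on the knockout-labelled array, against -0.02 on the control, and for ACTB 0.67, against 0.73. Poly-A spike-in controls, read by 24 probe sets, were 2.28-fold lower for the knockout-labelled cells. Scaling on them would move every difference up by 1.19 and the median of all genes to 1.22, so every direction below is relative to the other genes. In bulk RNA a change in the number of cells of a kind and a change in RNA per cell cannot be told apart.

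The structural subunits lay close together. Of the 71 at or above the floor, 43 were above 0 and 27 below, with a median difference of 0.05, and they ranged from -0.43 for NDUFA5 to 0.50 for UQCRC2. None differed by 1.5-fold in either direction, where 16.3% of all genes compared did so, 5.83% higher and 10.5% lower. At 1.2-fold 7 subunits were higher and 3 lower, against 23.7% and 23.3% of all genes (47% in either direction). The median over all genes was 0.04, and 52.9% of them lay above 0. Scaled on ribosomal protein genes the subunit median was -0.03, with 23 of 71 above 0.

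**Figure D1:**
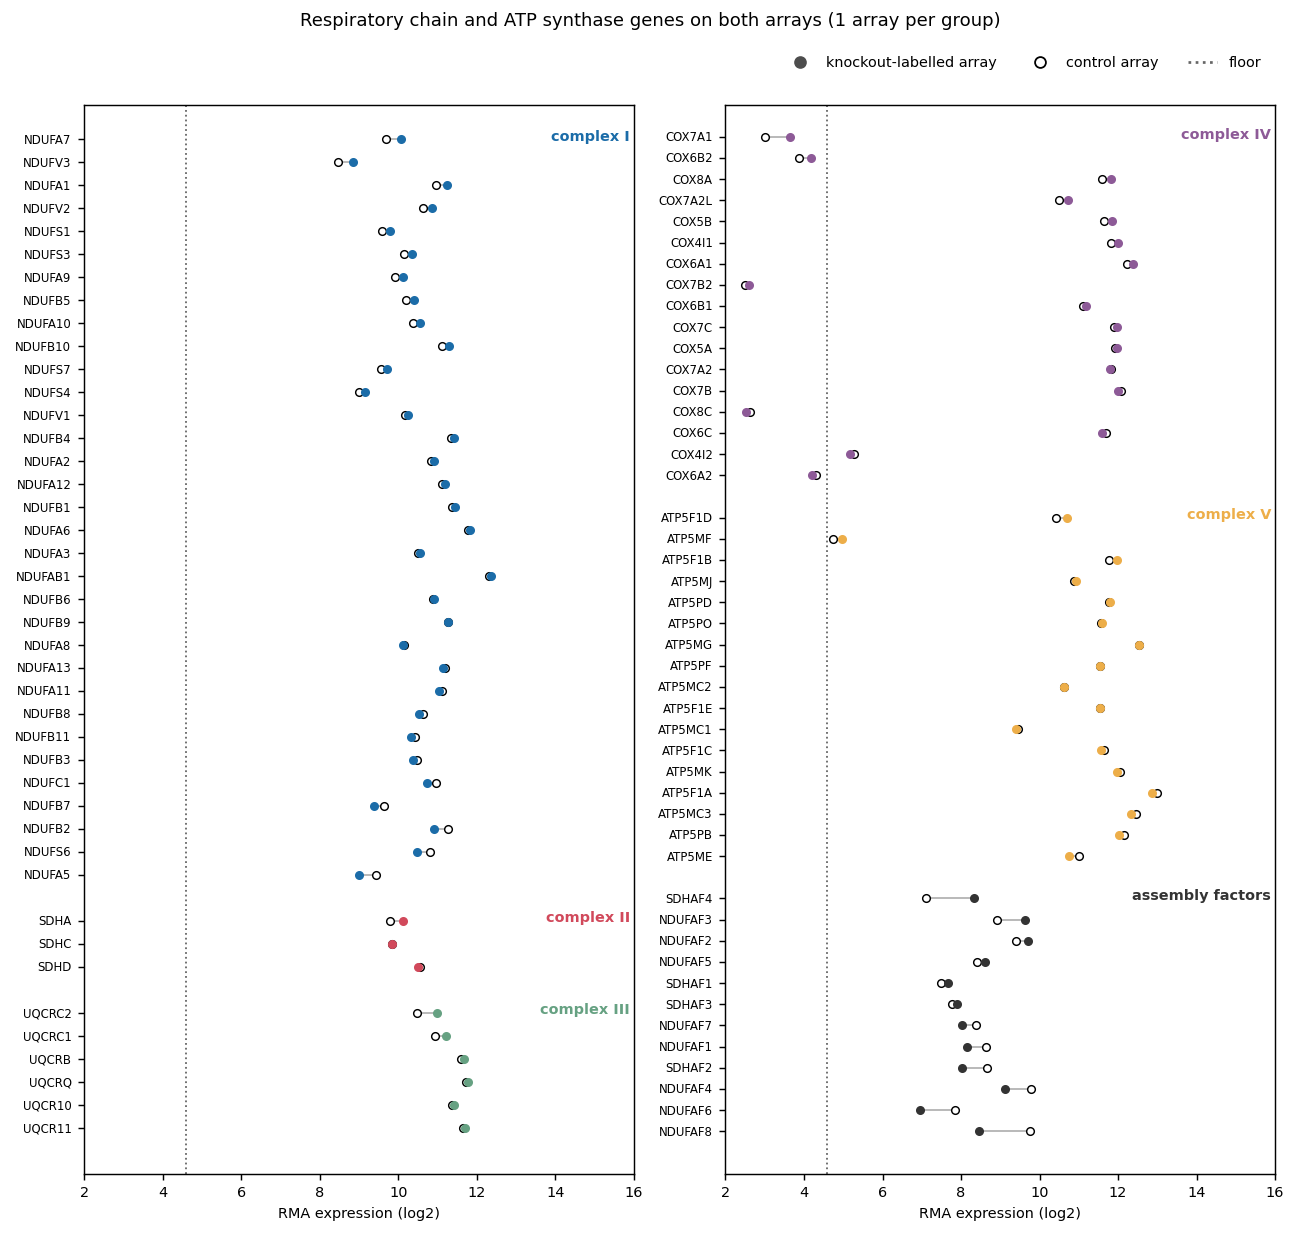
RMA log2 expression (horizontal axis) of the 88 subunit and assembly factor genes, with filled points for the knockout-labelled and open points for the control array; the dotted line marks the floor of 4.59. Most subunits stood far to the right of the floor with both points nearly touching, 5 complex IV isoforms stood left of it, and the assembly factors show the widest gaps.

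Subunit transcripts were among the brightest on the arrays, and 62 of the 71 (87.3%) fell in the brightest of 10 equal bins of all genes compared. That bin has the smallest spread of the 10 bins, 0.255, and 7.32% of its genes differed by 1.5-fold. At 1.2-fold 33.6% of its genes differed in either direction, below the 47% of all genes, and of the 62 subunits 6 were higher and 2 lower. The spread of the 62 subunits in it was 0.17. The part of brightness in the subunits' narrow range was not tested. Across the 71 subunits the difference and the mean brightness correlated at r = -0.10, a description over genes that share both arrays.

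**Figure D2:**
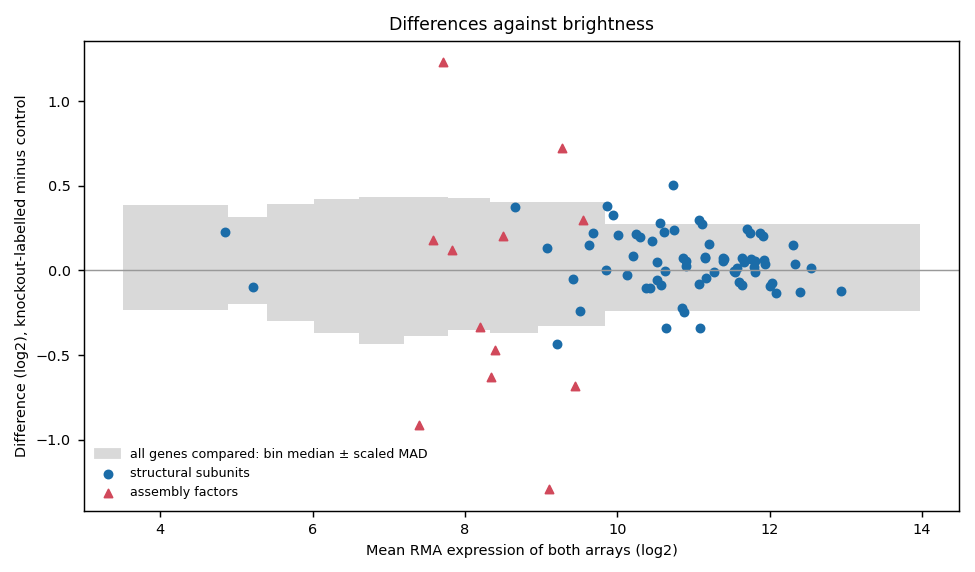
Difference (log2, knockout-labelled minus control, vertical axis) against the mean of both arrays (log2, horizontal axis) for structural subunits (circles) and assembly factors (triangles); the grey band is the median plus and minus the scaled median absolute deviation of all genes in each of 10 brightness bins. Subunits sit mostly at the right inside or near the band, from -0.43 to 0.50, and assembly factors spread from -1.29 to 1.23.

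Complex I, the NADH dehydrogenase, had 33 of its subunits compared, with a median of 0.06, 21 above 0 and 12 below. It has a peripheral arm in the matrix, which oxidises NADH at its tip and reduces ubiquinone at its base, and a membrane arm that pumps protons. In the peripheral arm 12 of 14 subunits were above 0, with a median of 0.14, and in the membrane arm 8 of 18, with a median of -0.02. Scaled on ribosomal protein genes, which lowers every difference by 0.085, the arms had 8 of 14 and 4 of 18 above 0. With the mean of each gene's probe sets they had 9 of 14 and 9 of 18, so the gap between the arms depends on the brightest probe sets. The difference between the arms was not tested.

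The largest positive differences of complex I were in NDUFA7, an accessory subunit of the peripheral arm, with 10.06 on the knockout-labelled array, against 9.68 on the control array (0.38), and in NDUFV3 at 8.84 knockout-labelled against 8.47 control (0.37), a small subunit at the tip. NDUFA1, a single-span membrane subunit, stood at 11.25 on the knockout-labelled array, against 10.97 on the control array (0.27). The other probe set of NDUFV3 was lower, by -0.46, so the direction of that gene rests on its brighter one. The catalytic subunits of the arm lay slightly above 0. NDUFV1, which binds NADH and flavin, differed by 0.08, and its iron-sulfur partner NDUFV2 by 0.24. NDUFS1, the largest iron-sulfur subunit, differed by 0.22, NDUFS3 by 0.21 and NDUFS7, near the ubiquinone site, by 0.15. Dimmer probe sets of NDUFS1 differed by -0.50, -0.54 and 0.16.

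The largest negative differences lay in accessory subunits. NDUFA5 of the peripheral arm stood at 8.99 on the knockout-labelled array, against 9.43 on the control array (-0.43). NDUFS6, which holds a zinc ion, stood at 10.47 knockout-labelled against 10.80 control (-0.34), and NDUFB2 of the distal membrane arm at 10.92 knockout-labelled against 11.26 control (-0.34). For NDUFB2 all 3 probe sets were lower, by -0.34, -0.24 and -0.62. The acyl carrier protein NDUFAB1, which also serves mitochondrial fatty acid synthesis, was level at 12.35 knockout-labelled against 12.31 control.

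Complex II, the succinate dehydrogenase of the tricarboxylic acid cycle, was read by 3 genes. SDHA, the flavoprotein that oxidises succinate, stood at 10.11 on the knockout-labelled array, against 9.78 on the control array (0.33, 1.26-fold). Its only probe set of its own is marked as able to match several transcripts, and SDHA has pseudogenes. The membrane anchors SDHC (9.85 on both arrays) and SDHD (10.50 knockout-labelled against 10.55 control, a difference of -0.06) were level. Of the other probe sets of SDHC above the floor, 2 were higher and 4 lower. SDHB, the iron-sulfur subunit, was not analysed here.

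Complex III, the cytochrome bc1 complex, held the largest difference of any subunit. The core proteins, which lie on the matrix side, were UQCRC2 at 10.99 on the knockout-labelled array, against 10.49 on the control array (0.50, 1.42-fold) and UQCRC1 at 11.22 knockout-labelled against 10.93 control (0.30, 1.23-fold). UQCRC2 was higher by 0.51 in its other bright probe set too, and by 0.16 with all its probe sets averaged. The small subunits UQCRB, UQCRQ, UQCR10 and UQCR11 lay between 0.05 and 0.07. With averaged probe sets UQCRB (-0.33) and UQCR10 (-0.44) lay below 0. CYC1, the haem-bearing cytochrome c1 of the same complex, lies outside the naming rule and stood at 10.97 knockout-labelled against 10.47 control (0.50, 1.41-fold). All 6 members of complex III were above 0, but scaled on ribosomal protein genes only 2 of them were.

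Complex IV, cytochrome c oxidase, had 12 subunits compared with a median of 0.07 and a range of -0.10 to 0.24. COX8A (11.83 on the knockout-labelled array, against 11.59 on the control array, 0.24), the supercomplex paralogue COX7A2L (10.73 knockout-labelled against 10.50 control, 0.23) and COX5B (11.85 knockout-labelled against 11.63 control, 0.22) were highest. All 4 probe sets of COX5B were higher, by 0.22 to 0.30. COX6C (11.60 knockout-labelled against 11.69 control, -0.09), COX7B (11.997 knockout-labelled against 12.07 control, -0.08) and COX4I2 (5.17 knockout-labelled against 5.27 control, -0.10) were lowest. COX4I1, the common form of subunit 4, differed by 0.20, and its other probe sets by 0.29, -0.49 and -0.31, so that their average was -0.08. COX7A2 differed by -0.01, COX6A1 by 0.15 and COX6B1 by 0.08. Several subunits of this complex exist as isoforms, and the ubiquitous forms were bright. The muscle forms COX6A2 (4.19 knockout-labelled against 4.30 control) and COX7A1 (3.63 knockout-labelled against 3.01 control) and the testis forms COX6B2 (4.17 knockout-labelled against 3.87 control), COX7B2 (2.60 knockout-labelled against 2.50 control) and COX8C (2.53 knockout-labelled against 2.62 control) were under the floor on both arrays. Of the restricted forms COX4I2, described in lung and in low oxygen, alone reached it. COXFA4, formerly NDUFA4 and now placed in complex IV, is outside the rule by its current name and stood at 11.61 on the knockout-labelled array, against 11.40 on the control array. Its paralogue COXFA4L2 was under the floor at 4.32 knockout-labelled against 4.37 control.

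Complex V had 7 of 17 subunits above 0, 10 below, and a median of -0.005, which was -0.09 on ribosomal scaling and 0.01 without marked probe sets. In F1, the part that makes ATP, ATP5F1D differed by 0.28 (10.70 on the knockout-labelled array, against 10.43 on the control array). The catalytic ATP5F1B differed by 0.22 (11.98 knockout-labelled against 11.76 control), ATP5F1A by -0.12, ATP5F1C by -0.07 and ATP5F1E by -0.01. In the peripheral stalk, which holds the catalytic part of F1 still, ATP5PB differed by -0.13 (12.02 knockout-labelled against 12.15 control). ATP5PD differed by 0.02, ATP5PO by 0.01 and ATP5PF by less than 0.01. The c ring, which turns as protons pass, is built from 1 mature protein encoded by several genes. Those were ATP5MC1 at -0.05, ATP5MC2 at -0.005 and ATP5MC3 at -0.13, all slightly below 0. With averaged probe sets ATP5MC2 differed by 0.34, and ATP5F1C by 0.30 and ATP5F1E by -0.48. ATP5ME, a membrane subunit at the dimer interface, was lowest at 10.76 knockout-labelled against 11.00 control (-0.25), and its other probe set differed by -0.26. ATP5MF was read only by a dim probe set (4.96 knockout-labelled against 4.74 control).

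**Figure D3:**
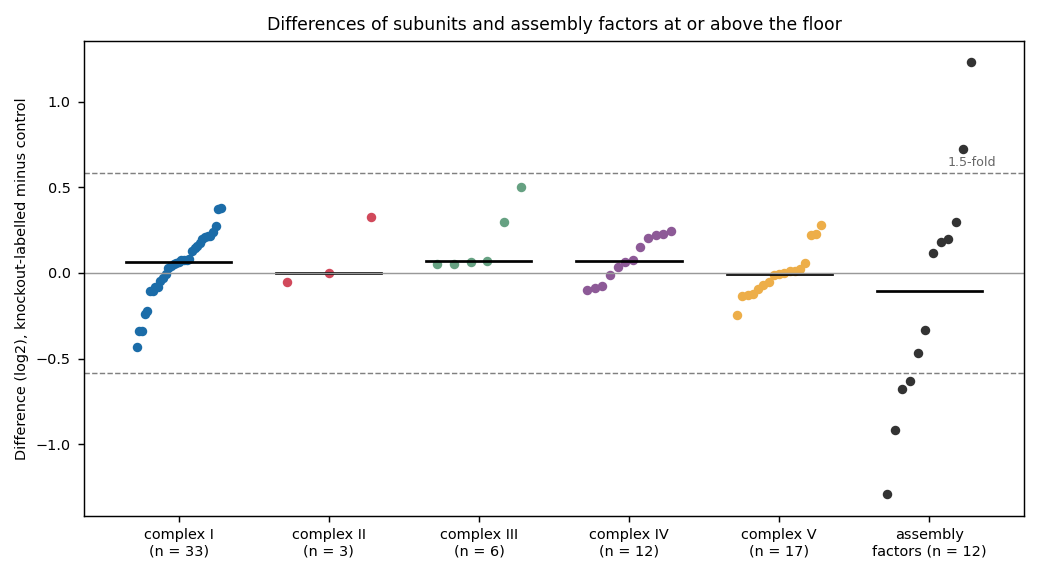
Difference (log2, knockout-labelled minus control) of each gene at or above the floor, by complex and for the assembly factors; black bars are medians and dashed lines mark 1.5-fold. No subunit crosses the dashed lines, and 6 of 12 assembly factors do.

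Many subunits had further, dimmer probe sets. In 34 subunits 2 or more probe sets reached the floor, and 18 of these had them all in the same direction. The 57 further probe sets above the floor had a median of -0.05, and 10 of them passed 1.5-fold, 3 higher and 7 lower, a share near the 16.3% of all genes. The 27 with a mean under the 75th percentile of all probe sets (6.60) had a median of -0.35, and 17 were below 0. Among all 57, the largest differences were in NDUFB4 and ATP5F1C. NDUFB4 stood at 6.87 on the knockout-labelled array, against 4.98 on the control array (1.89), beside 0.08 in its brightest probe set. ATP5F1C stood at 8.29 knockout-labelled against 6.85 control (1.44), beside -0.07. Among the lower ones, ATP5PB stood at 3.70 on the knockout-labelled array, against 4.78 on the control array (-1.08), beside -0.13 in its brightest probe set. Others were NDUFA6 at 7.22 knockout-labelled against 8.22 control (-1.005), UQCR10 at 6.001 knockout-labelled against 6.93 control (-0.93) and COX5A at 5.52 knockout-labelled against 6.35 control (-0.84), each beside a brightest probe set within 0.06 of 0. Also past 1.5-fold lower were UQCRB at 3.63 knockout-labelled against 4.64 control (-1.01), beside 0.07, and COX7B at 3.91 knockout-labelled against 4.79 control (-0.88), beside -0.08. So was the dimmest probe set of NDUFB2 (-0.62), beside -0.34. The ATP5F1C and NDUFA6 probe sets had means of 7.57 and 7.72, above 6.60. Which transcripts these further probe sets detect was not tested. Of the subunits' brightest probe sets 41 are marked as able to match several transcripts, with a median of 0.04, and 30 are not, with a median of 0.07. Without marked probe sets 55 subunits remained, of which 2 were higher and 4 lower by 1.5-fold, against 5.83% and 10.5% of all genes.

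The assembly factors spread more widely than the subunits. Of 12 compared, 2 were at least 1.5-fold higher and 4 lower, against 5.83% and 10.5% of all genes, and 6 lay on each side of 0, with a median of -0.11. At 2-fold 1 was higher and 1 lower and no subunit was either, against 1.05% and 3.79% of all genes (4.84% in either direction). Their range ran from -1.29 to 1.23, and they were dimmer than the subunits, in bins with a spread of 0.366 to 0.412. The difference from the subunits was not tested.

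In 2 pairs of factors that act together for complex I, the partners had differences of opposite sign. NDUFAF3 and NDUFAF4 form a pair that binds the early ubiquinone-reducing part. NDUFAF3 stood at 9.63 on the knockout-labelled array, against 8.91 on the control array (0.72, 1.65-fold higher), while NDUFAF4 stood at 9.11 knockout-labelled against 9.79 control (-0.68, 1.60-fold lower) and was lower by -1.45 in its other probe set. NDUFAF5, which hydroxylates NDUFS7, stood at 8.61 knockout-labelled against 8.41 control (0.20). That was under 1.2-fold and below its bin's spread of 0.388, and its other probe set above the floor differed by 0.07. NDUFAF8, which stabilises NDUFAF5, stood at 8.46 knockout-labelled against 9.76 control (-1.29, 2.45-fold lower). The value of NDUFAF8 rests on 1 probe set, since its others were under the floor, and the average of all was -0.41. Among the remaining factors, NDUFAF6 was 1.89-fold lower at 6.94 on the knockout-labelled array, against 7.86 on the control array (-0.91), with both probe sets lower. NDUFAF1, of the membrane arm assembly complex, stood at 8.16 knockout-labelled against 8.63 control (-0.47). NDUFAF7, a methyltransferase, stood at 8.04 knockout-labelled against 8.37 control (-0.34), with dimmer probe sets at 0.03 and -0.14. NDUFAF2, which acts late at the tip, stood at 9.70 knockout-labelled against 9.40 control (0.30).

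The factors of complex II were divided too. SDHAF2 attaches flavin to SDHA and stood at 8.03 on the knockout-labelled array, against 8.66 on the control array (-0.63, 1.55-fold lower). SDHAF4 binds the flavinated SDHA afterwards and stood at 8.33 knockout-labelled against 7.10 control (1.23, 2.35-fold higher). SDHAF1 and SDHAF3, which help insert the iron-sulfur clusters of SDHB, differed by 0.18 and 0.12. Each of SDHAF2, SDHAF3 and SDHAF4 was read by a single probe set above the floor. On the spike-in scale all compared assembly factors except NDUFAF8 would lie above 0.

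The rule also matched 5 other transcripts. NDUFB2-AS1, an antisense RNA, stood at 4.39 on the knockout-labelled array, against 4.99 on the control array, NDUFV1-DT at 6.38 knockout-labelled against 6.34 control and the pseudogene ATP5MC2P1 at 5.16 knockout-labelled against 5.28 control. NDUFV2-AS1 and COX6A1P1 were under the floor on both arrays.

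Promoters were searched because NRF1, GABPA and YY1 are known regulators of many subunit genes. RefSeq windows from 250 bases before to 50 bases after the start (GRCh38.p14) were found for 65 of 76 subunit genes and 11 of 12 assembly factors. Both strands were searched for the motif of the factor NRF1, which reads GCGCA, any base and GCGC, of ETS factors such as GABPA, CCGGAAGT, of YY1, AANATGGC, of CREB (the CRE), TGACGTCA, and for the E-box, CACGTG. The YY1 letters occurred in 19 of 65 subunit promoters (29.2%), against 7.92% of 15842 protein-coding promoters. The NRF1 letters occurred in 16 (24.6%), against 8.57%, and the ETS letters in 9 (13.8%), against 6.19%. The E-box was near the background at 10.8%, against 8.88%, and the CREB motif was found in 4 promoters (6.15%), against 2.59%. Among the assembly factors 3 of 11 held the NRF1 letters and 1 held the YY1 letters.

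**Figure D4:**
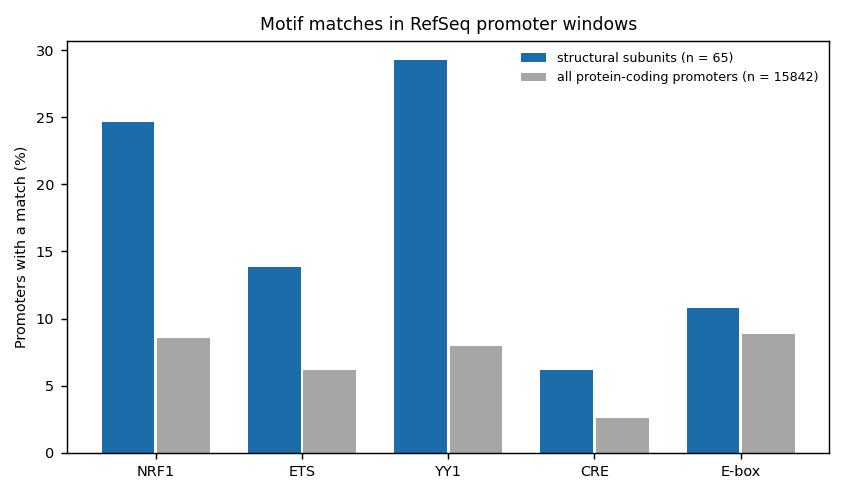
Share of RefSeq promoter windows (vertical axis, percent) with at least 1 match to each of 5 motifs, in 65 structural subunit genes (left bars) and 15842 protein-coding genes (right bars). The subunit bars for YY1 (29.2%) and NRF1 (24.6%) stand above the bars of all protein-coding genes, 7.92% and 8.57%.

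Of the YY1 matches 14 of 19 lay after the start, with a median position of 16 and the farthest at -223, and their letters include ATG. The following windows of 30 bases are 5′ to 3′ on the gene's strand with the match in capitals. They show 7 of the matches, ordered by difference. These were picked as examples after the differences were seen, from subunits named above except for NDUFA9, which was not.
NDUFA7 (chr19:8321343-8321372, minus strand, difference 0.38): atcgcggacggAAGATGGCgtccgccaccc
UQCRC1 (chr3:48609605-48609634, minus strand, 0.30): actgcagctggAAGATGGCggcgtccgtgg
COX8A (chr11:63974606-63974635, plus strand, 0.24): cggccagcgcaGCCATTTTggcttcctgac
NDUFS1 (chr2:206159410-206159439, minus strand, 0.22): tagccgaggccGCCATATTgaataagcgac
NDUFS3 (chr11:47579078-47579107, plus strand, 0.21): tgcatctgagtAACATGGCggcggcggcgg
NDUFA9 (chr12:4649113-4649142, plus strand, 0.21): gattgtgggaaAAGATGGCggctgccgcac
NDUFS6 (chr5:1801404-1801433, plus strand, -0.34): gccagcggcgcAAAATGGCggcggcgatga
The 12 not shown include NDUFA1 (0.27), NDUFV2 (0.24), NDUFS7 (0.15), COX6A1 (0.15), COX7B (-0.08) and ATP5PB (-0.13). In COX8A and NDUFS1 the match is on the opposite strand. The 19 compared subunits with a YY1 match had a median difference of 0.15, from -0.34 to 0.38, and the 42 without had 0.02, from -0.43 to 0.50, so the ranges overlapped almost wholly. For NRF1 the medians were 0.05 in 15 subunits with a match and 0.05 in 46 without, and for ETS 0.05 in 9 and 0.05 in 52. For the CRE they were -0.15 in 4 with and 0.05 in 57 without, and for the E-box -0.05 in 7 with and 0.06 in 54 without.

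The NRF1 matches lay mostly before the start, with a median position of -63. Examples picked after the differences were seen are shown for a subunit each of complexes II, III and V. Windows are also given for 2 of the 3 assembly factors that hold a match. Matches not shown include those of ATP5ME (-0.25), SDHD (-0.06), UQCR10 (0.05) and ATP5MJ (0.06), and all those of complexes I and IV. The SDHA window is the nearest to the start of its 4 matches.
SDHA (chr5:218291-218320, plus strand, difference 0.33): ccggtgtggtGCGCAGGCGCagtctgcgca
UQCRC1 (chr3:48609674-48609703, minus strand, 0.30): gtacggtactGCGCCTGCGCcgcgaccgcc
ATP5F1C (chr10:7788145-7788174, plus strand, -0.07): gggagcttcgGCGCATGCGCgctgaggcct
SDHAF4 (chr6:70566899-70566928, plus strand, 1.23): ctactgctttGCGCCTGCGCggaggctcgg
NDUFAF5 (chr20:13785014-13785043, plus strand, 0.20): agccgcgctgGCGCATGCGCacaaaaagcg
In UQCRC1 and SDHAF4 the NRF1 match is on the opposite strand. A match is a description of the letters and does not show binding. The factors' own transcripts stood at 6.57 on the knockout-labelled array, against 6.42 on the control array for NRF1 (0.14), 11.14 knockout-labelled against 11.23 control for YY1 (-0.10) and 7.57 knockout-labelled against 7.80 control for GABPA (-0.23).

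Other genes of mitochondrial energy metabolism were set beside the subunits as lists. One list held factors that maintain and express mitochondrial DNA. Of 23 compared 16 were below 0, with a median of -0.27, and 6 were at least 1.5-fold lower and none higher. Of all genes 10.5% were lower and 5.83% higher by 1.5-fold, and 52.9% lay above 0. TRMT10C, a subunit of mitochondrial RNase P, stood at 8.57 on the knockout-labelled array, against 9.90 on the control array (-1.33, 2.52-fold lower), and the transcription factor TFB2M at 8.90 knockout-labelled against 9.76 control (-0.86). The other 4 past 1.5-fold, named after their values were seen, were TFAM, which packages and transcribes mitochondrial DNA (8.84 knockout-labelled against 9.66 control, -0.82), the elongation factor TEFM (-0.75), the helicase TWNK (-0.72) and the topoisomerase TOP1MT (-0.62). The highest were the polymerase subunit POLG2 (0.53) and the translation factor TUFM (0.46). The list median stayed below 0 with each gene's probe sets averaged (-0.22), without marked probe sets (-0.27) and on ribosomal protein scaling (-0.36), and stood at 0.92 on the spike-in scale. Of the 13 subunits encoded in mitochondrial DNA none was analysed here.

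Tricarboxylic acid cycle and pyruvate dehydrogenase genes had the opposite sign of median, with 13 of 18 above 0 and a median of 0.20. The succinyl-CoA ligase subunit SUCLG2 (9.32 on the knockout-labelled array, against 8.60 on the control array, 0.73) and the pyruvate dehydrogenase component PDHX (0.49) were highest, and PDHB (-0.32) and IDH3A (-0.20) lowest. Without marked probe sets that median was -0.01 over 12 genes. A list of electron carriers, transporters and outer membrane channels had 10 of 14 above 0 and a median of 0.13, with CYC1 (0.50) and the electron transfer flavoprotein ETFA (0.38) highest. The glycerol phosphate dehydrogenase GPD2 (-0.57) and cytochrome c, CYCS (11.68 knockout-labelled against 12.03 control, -0.35), were lowest. That median was 0.02 without marked probe sets, with 7 of 13 above 0, and 0.05 on ribosomal scaling.

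Assembly factors outside the naming rule had a median of -0.02 over 44 genes, with 4 at least 1.5-fold lower and none higher, against 10.5% and 5.83% of all genes, so the lower share was near that of all genes. LYRM7, a chaperone of the complex III iron-sulfur protein, stood at 7.48 on the knockout-labelled array, against 8.73 on the control array (-1.25), and COX20, a chaperone of the mitochondrially encoded COX2, at 9.07 knockout-labelled against 10.30 control (-1.23). The complex V factor TMEM70 (-0.999) and COA7 (-0.85) were the other 2, named after their values were seen. COX10, of haem a synthesis, and ECSIT, of complex I assembly, were highest at 0.53 each. In coenzyme Q synthesis the subunits of the enzyme that makes the side chain differed in opposite directions, PDSS1 at 7.33 knockout-labelled against 8.56 control (-1.23) and PDSS2 at 7.84 knockout-labelled against 6.93 control (0.91). The median of that list was 0.09 over 13 genes, against 0.04 with averaged probe sets, with COQ10B next highest (0.57) and COQ6 next lowest (-0.16).

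Regulators of mitochondrial biogenesis had a median of -0.07 over 13 genes, which turned to 0.16 over 9 genes without marked probe sets. The coactivator PPARGC1B stood at 5.92 on the knockout-labelled array, against 6.97 on the control array (-1.05) and GABPB1, the partner of GABPA, differed by -0.45. PPARA (0.57) and TFE3 (0.31) were highest. Genes of cristae and mitochondrial dynamics had a median of 0.10 over 19 genes, which was 0.01 with averaged probe sets and 0.02 without marked ones. They ran from MICOS10 (-0.61) and the protease OMA1 (-0.19) to APOOL (0.31) and CHCHD6 (0.47). Genes of the oxygen-dependent choice of fuel had a median of 0.28 over 15 genes, 3 of them at least 1.5-fold higher and 1 lower, against 5.83% and 10.5% of all genes. With averaged probe sets the median was 0.13, with 9 of 14 above 0. The pyruvate dehydrogenase kinase PDK4 (6.29 knockout-labelled against 5.01 control, 1.28) and the mitophagy receptor BNIP3L (9.64 knockout-labelled against 8.86 control, 0.79) were highest, and the prolyl hydroxylase EGLN3 (-0.67) and the phosphatase PDP1 (-0.14) lowest.

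**Figure D5:**
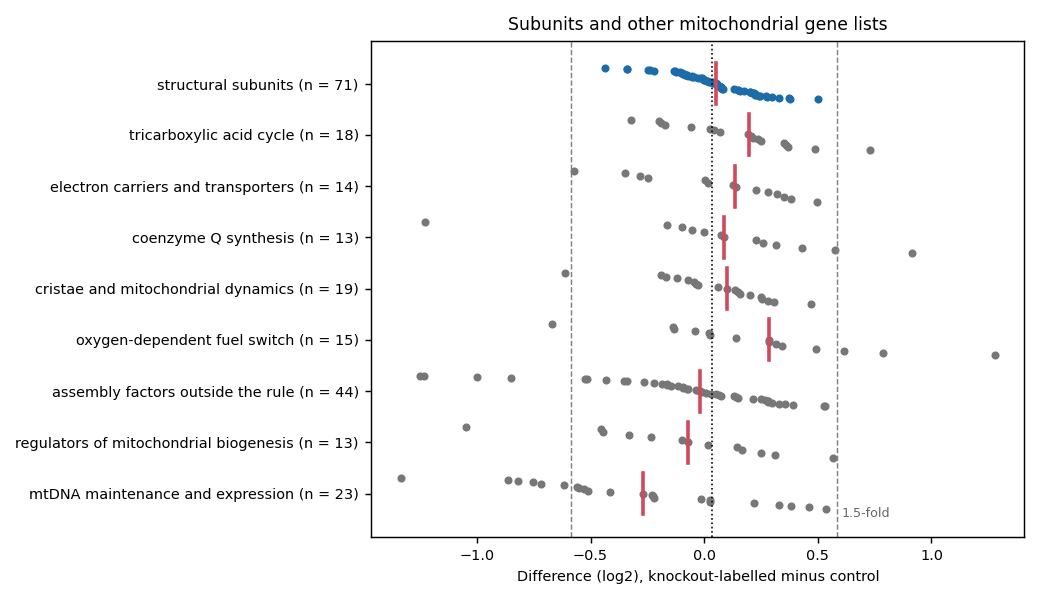
Difference (log2, knockout-labelled minus control, horizontal axis) of the structural subunits and of 8 other lists of mitochondrial genes, with 1 point per gene at or above the floor, red bars for list medians, dashed lines at 1.5-fold and a dotted line at the median of all genes, 0.04. Subunits form the tightest row, and the row of mitochondrial DNA maintenance and expression lies furthest left with a median of -0.27.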

How the data were processed

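Total RNA of 2 HCT15 cultures was measured on 1 Affymetrix array each. The authors deposited log2 expression values, and the submitters' processing notes name RMA without a version. This method corrects background, gives all arrays the same distribution and combines probes into probe set values, so a difference in total RNA is removed.

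Of 54675 probe sets, 41091 had 1 gene symbol, 1801 had several and 11721 had none, and only the first kind gave gene values, besides 62 control probe sets. NDUFS5, NDUFS8, NDUFC2, SDHB, UQCRFS1, UQCRH, UQCRHL and ATP5MGL were not analysed here. Thresholds were 1.2-fold, 1.5-fold (main) and 2-fold. Bins are 10 equal groups of the compared genes by mean brightness. The members and lists were chosen with earlier results of these data known. Named genes were the 3 highest and lowest of complexes I, III, IV and V, all of complex II, isoform pairs, assembly factors past 1.2-fold, and the 2 highest and lowest of each other list. In addition, catalytic and c ring subunits and factors under 1.2-fold were given for completeness, after their values were seen. The alternatives named in the closing section changed 1 choice at a time. Calculations used Python 3.11.15 and pandas 2.3.3 and were tested on simulated data. Precision is limited by the number of arrays, 1 per group, and no error can be given.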

Additional observations from a re-analysis of the deposited data

How the results depend on the processing

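No paired analysis was possible because each group has 1 array, and leaving out a replicate was not possible for the same reason. Medians were called moved when they shifted by more than 0.354, the spread of all gene differences. With the spike-ins as scale the medians were 1.24 for all subunits, 1.251, 1.19, 1.26, 1.26 and 1.18 for complexes I to V and 1.08 for assembly factors. All 71 subunits were then at least 1.5-fold higher, so the 27 below 0 changed sign, as did all lower members at or above the floor except NDUFAF8. Of those past 1.5-fold these were NDUFAF4 (0.51), NDUFAF6 (0.27), SDHAF2 (0.56) and NDUFB2-AS1 (0.59). Under the other alternatives (every gene kept, a higher floor of 6.60, mean of probe sets, no marked probe sets, loess trend removed, median centring, ribosomal scaling, 64 linear units added) the subunit median stayed between -0.03 and 0.05 and that of assembly factors between -0.19 and -0.02. The count of 0 subunits past 1.5-fold became 1 higher with no floor (COX7A1, dim on both arrays), 1 higher and 1 lower with averaged probe sets (NDUFB4 and ATP5PB), and 2 higher and 4 lower without marked probe sets. At 1.2-fold it was 7 higher and 3 lower, and at 2-fold 0. On ribosomal scaling the medians of complexes I to V all lay below 0, that of complex II at -0.09. Without marked probe sets those of III and IV lay below 0 and that of V above 0.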
